A study of Mus musculus with 3 samples.

Results

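The Nodal, BMP and TGF-beta pathway was followed through 52 genes chosen by name: 16 ligands, 11 extracellular regulators, 11 receptors, 9 Smads and co-repressors and 5 target genes. They are 52 of 30458 gene names on the array and are read by 74 probes. Ratios could be tested for 45 of the 52 genes. The samples were mouse embryoid bodies, aggregates of embryonic stem cells left to differentiate in suspension, taken at day 10 of culture without LIF, the cytokine that sustains self-renewal. One genotype was the wildtype control and the other the Dido3deltaCT mutant, in which the Dido3 protein of the Dido1 locus lacks its C terminus. There were 3 biological replicates per genotype, hybridised as 3 pairs on 3 two-colour arrays. Mutant RNA carried Cy3 on arrays 1 and 3 and Cy5 on array 2. The sources used here do not say how many cell lines or clones stand behind each genotype, so p-values may measure only the spread between cultures and arrays.

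Ligands of this family are secreted dimers that bring together type I and type II receptor kinases, which phosphorylate Smad proteins. Nodal, the activins and the TGF-betas signal through Smad2 and Smad3, and BMPs through Smad1 and Smad5, and each set joins Smad4 in the nucleus. Nodal signalling patterns the early embryo and maintains the primed pluripotent state, BMP signalling helps form mesoderm and switches on the Id genes, and secreted antagonists limit both.

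The quantity given for each gene is the log2 ratio of mutant over wild type on an array. A ratio of 1 is a doubling in the mutant and −1 a halving. No member passed the adjusted p threshold of 0.05 from limma, in either direction. Of the genes tested, 0.207% passed it as higher and 0.0907% as lower in the mutant, 32 and 14 of 15427 genes. At an adjusted p under 0.1, 1 of 45 members, Nodal, lay higher, beside 4.22% of all genes. The members lower at that level were 6, Fst, Id2, Tgfbr2, Acvr1, Tgfb2 and Smad3, beside 3.81% of all genes.

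By unadjusted p under 0.05, 5 members were higher, beside 11.4% of all genes, and 13 were lower, beside 11.3%. Mutant and wild type levels did not overlap for 6 members with the mutant higher, beside 11% of all genes, and for 12 with the mutant lower, beside 10.3%. The median log2 ratio of the 45 members was −0.46, against 0.03 over all 15427 genes. Of the 45, 30 lay below 0, beside 47.6% of all genes. Signal above background was required on all arrays of at least 1 genotype. By the brightest probe, both genotypes met this in 39 members, and Tgfb2, Bmp6, Tgfb3, Gdf6, Tgfb1 and Tgfbr2 met it in the wild type alone, so counts that hold these 6 support no direction. A second probe of Tgfb2 was above background on all 3 arrays in both genotypes. Restricted to the 40 genes with a probe above background in all 6 samples, the median was −0.27. A bulk ratio cannot tell fewer cells of a type from less RNA per cell.

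The arrays did not behave alike. Across members, which are not independent replicates and share a library pair, the correlation of ratios was 0.883 for arrays 1 and 3, 0.296 for arrays 1 and 2, and 0.251 for arrays 2 and 3. Over all genes these correlations were 0.879, 0.151 and 0.180. Array 2 is also the array with dyes reversed, so a dye effect and a property of that replicate cannot be told apart. The share of probes above background on arrays 1, 2 and 3 was 62.3%, 62.5% and 46.5% in the mutant. In the wild type it was 74.4%, 48.5% and 63.3%. The Cy5 channel had the larger share on each array, and the wild type carried Cy5 on arrays 1 and 3. The part of the dyes in which genotype met the background requirement was not tested. The Dido1 locus was checked through its 4 probes, each with 1 sign on all arrays. Mean log2 ratios were −1.92 for 1 probe and 1.74, 1.12 and 1.36 for the others. The probe at 1.36 was above background in 0 of 3 wild type samples, so its mutant signal was at least 2.17-fold higher. The probe at 1.12 was above background in 2 of 3 wild type samples. Where these probes lie relative to the truncation was not used here.

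**Figure D1:**
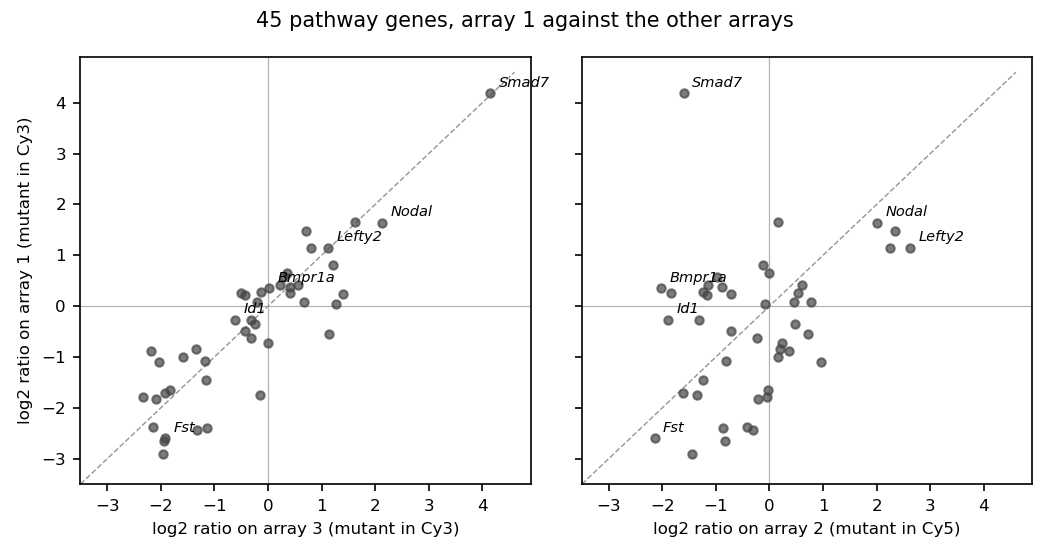
Log2 ratio of mutant over wild type on array 1 (vertical axis) against array 3 (left) and array 2 (right), 1 point per tested pathway gene, with the dashed line marking equal ratios. Points follow the line on the left (r = 0.883) and scatter on the right (r = 0.296), where Smad7 stands at 4.19 on array 1 and −1.59 on array 2.

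Markers of other cell states moved on the same arrays. Of 12 pluripotent cell markers, all tested, 11 had a ratio above 0, beside 8091 of all 15427 genes, with a median log2 ratio of 2.50. The mean log2 level of the list ran from 12.4 to 13.4 in mutant samples and from 11.0 to 11.3 in wild type ones. All 14 extraembryonic endoderm markers were below 0 on every array, beside 3497 of all 15427 genes, with a median of −2.74. This list's mean level ran from 9.83 to 12.6 in mutant and from 13.1 to 14.4 in wild type samples. The median was −1.50 for 9 tested mesoderm and mesenchyme markers, −1.49 for 8 neural markers, −0.61 for 9 endothelial and blood markers and −0.03 for 7 surface ectoderm and epithelial markers. Of the 8 neural markers, 4 were above background in all mutant samples and 7 in all wild type samples. For the 9 endothelial and blood markers these numbers were 5 and 8. The medians of the neural list and of the endothelial and blood list therefore support no direction. The part of the marker shifts in the members' ratios was not tested.

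The probes used for Fst, Nodal, Id2, Tgfbr2, Acvr1, Lefty1 and Lefty2 are given by their first 30 bases. Bases are in the direction the array carries, with mm9 positions from the scanner files. They are shown because each gene's value rests on 1 probe of 60 bases, and because Lefty1 and Lefty2 are close relatives that a probe must separate. The probes used for Lefty1 and Lefty2 share at most 19 of 60 bases in any ungapped placement. This compares the probes with each other. Whether either probe also matches the other gene's transcript was not tested.
Fst, chr13:115243565-115243624, reverse strand: caccaatgttcagtgttgacatagcctttg
Nodal, chr10:60887790-60887849, forward strand: ttattagattataaacgagccatttggttc
Id2, chr12:25778904-25778963, reverse strand: tgagtgaaccttgtggactctttaattaga
Tgfbr2, chr9:115997155-115997214, reverse strand: tctagcggggaatttacagaatgctggtcc
Acvr1, chr2:58298937-58298996, reverse strand: acgctgtggggggaaatgcatcttcttcgg
Lefty1, chr1:182868137-182868196, forward strand: ctttcatgcaaatctgaagtgctcattata
Lefty2, chr1:182828893-182828952, forward strand: aagggtgtacctgagtctttctggccattg

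Nodal, the ligand that patterns the epiblast, had the ratio of smallest p among ligands. Its log2 levels were 9.87, 9.87 and 10.16 in the wild type samples of arrays 1, 2 and 3 and 11.51, 11.88 and 12.29 in the mutant. All mutant samples lay above all wild type samples. The log2 ratios of 1.64, 2.02 and 2.13 average 1.93 (SE 0.25, n = 3), a 3.81-fold higher signal, with an adjusted p of 0.0543 from limma.

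Tgfb2, a TGF-beta ligand, had levels of 10.68, 8.95 and 9.25 in wild type and 8.02, 8.13 and 7.31 in mutant samples, without overlap. Its log2 ratio was −1.81 (SE 0.41, n = 3, limma adjusted p = 0.0921). The mutant signal was above background on 2 of 3 arrays. A second Tgfb2 probe gave −1.96, −1.47 and −1.67 (limma adjusted p = 0.0571 over all probes).

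Bmp2, a BMP ligand, gave ratios of −2.40, −0.88 and −1.14, averaging −1.47 (SE 0.38). Its levels overlapped between genotypes, since the mutant sample of array 2 (12.05) lay above the wild type sample of array 3 (11.45). Inhbb, the subunit of activin B, gave 1.15, 2.25 and 0.81, averaging 1.40 (SE 0.36), and its mutant levels, 8.21 to 9.62, lay above its wild type levels, 7.32 to 7.41.

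For Bmp6 the ratios were −2.44, −0.30 and −1.33, and for Tgfb3, another TGF-beta, −1.64, −0.02 and −1.84. Both sat near 0 on array 2, and their mutant signals were above background on 1 and 2 of 3 arrays. Their means were −1.36 and −1.17, with adjusted p of 0.171 and 0.202 from limma.

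The remaining ligands had smaller ratios. Gdf1, a Nodal partner, averaged 0.53 with an SD of 0.10, Gdf15, a stress-induced family member, 0.63 with an SD of 0.69, and Bmp4, which induces mesoderm, 0.39 with an SD of 0.14. Gdf1 shares a transcript with Cers1, so its signal cannot be told apart from that gene's. Gdf15, Bmp8b (0.41), which has the near-identical neighbour Bmp8a, Bmp5 (0.31) and Bmp7 (−0.17) changed sign between arrays. Gdf6 (−0.64) and Tgfb1 (−0.39) were below 0 on all 3 arrays, with mutant signals above background on 2 and 1 of them. In all, 7 of 14 tested ligands were above 0 and 7 below, with a median of 0.07. Of those below, Tgfb2, Bmp6, Tgfb3, Gdf6 and Tgfb1 met the background requirement in the wild type alone, so the split supports no direction.

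**Figure D2:**
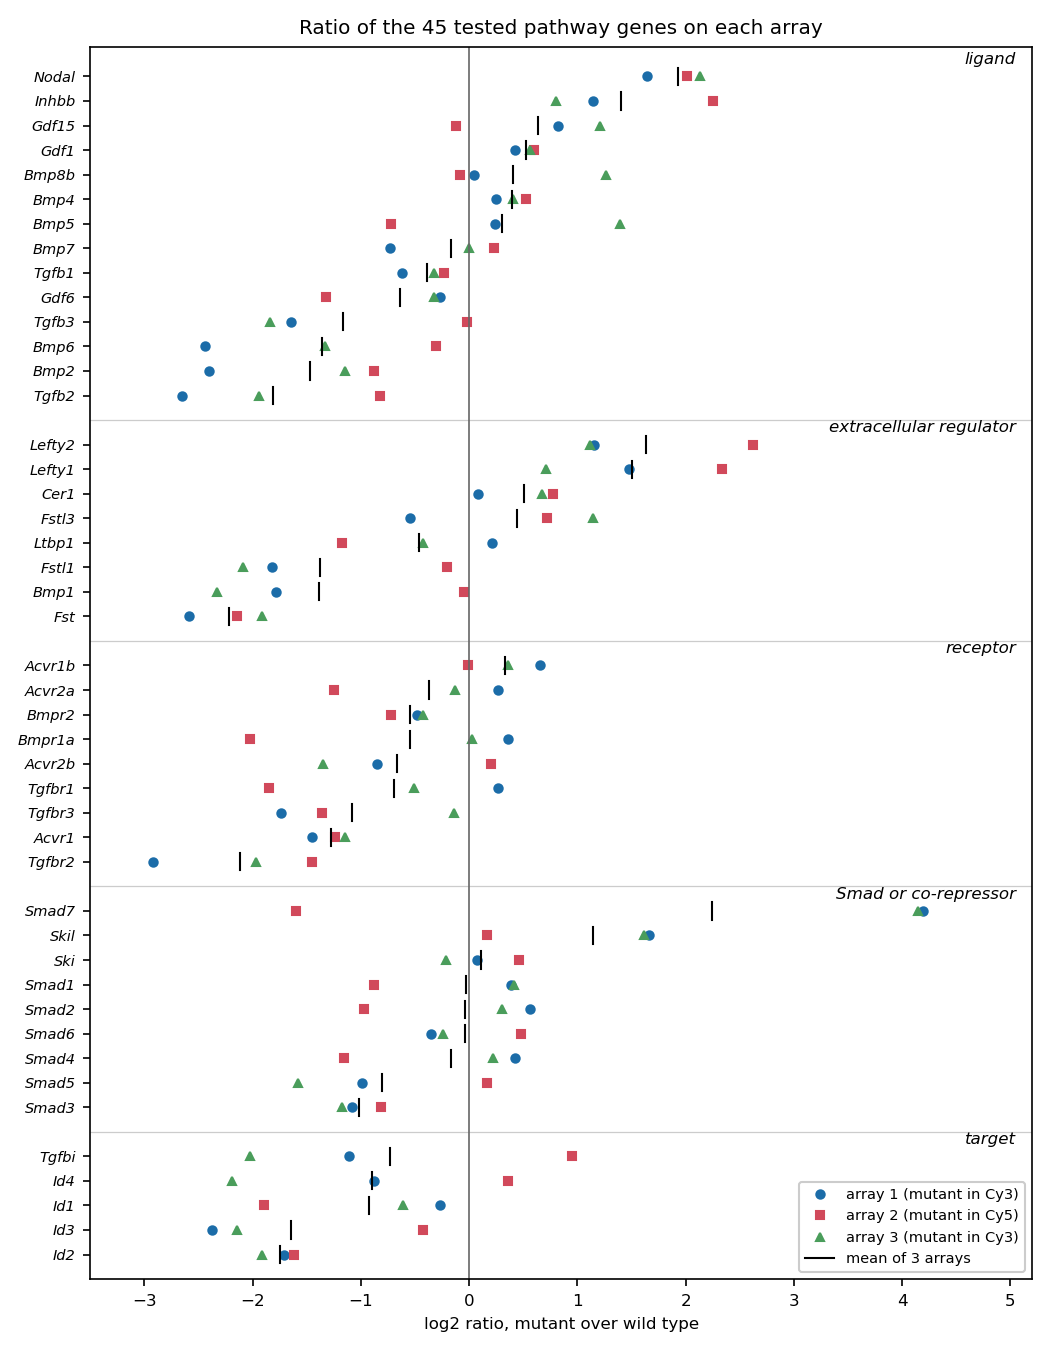
Log2 ratio of mutant over wild type (horizontal axis) for the 45 tested pathway genes, grouped by role, with 1 marker per array and a black bar at the mean of the 3 arrays. Receptors (8 of 9) and targets (5 of 5) have means below 0, beside 47.6% of all genes, and ligands divide 7 and 7. The ligand and receptor counts hold genes above background on all arrays in the wild type alone, so they support no direction. The array with reversed dyes often stands apart from the other arrays.

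Among extracellular regulators Fst, follistatin, which binds and neutralises activins, had the smallest p of all members. Wild type levels were 12.98, 12.62 and 10.21 and mutant levels 10.39, 10.47 and 8.30. Both samples of array 3 were low, so the groups overlapped although the mutant lay below its paired wild type each time. The ratios of −2.59, −2.14 and −1.91 average −2.22 (SE 0.26, n = 3), a 4.65-fold lower signal, with a limma adjusted p of 0.0505.

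Lefty1 and Lefty2, secreted Nodal antagonists that Nodal itself induces, both lay above 0. For Lefty2 the wild type levels were 10.32, 8.38 and 9.59 and the mutant levels 11.48, 11.01 and 10.71, without overlap. For Lefty1 they were 9.15, 8.02 and 10.23 in wild type and 10.63, 10.35 and 10.94 in mutant samples, again without overlap, though the highest wild type and lowest mutant differed little. The log2 ratios were 1.15, 2.62 and 1.12 for Lefty2 and 1.48, 2.33 and 0.71 for Lefty1. Their means of 1.63 (SE 0.39) and 1.51 (SE 0.37) had limma adjusted p of 0.101 and 0.109, and both were largest on array 2.

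Cer1, an inhibitor of Nodal and BMPs, also lay above 0 on all arrays, at 0.08, 0.78 and 0.68, averaging 0.51. Its levels in array 2 samples, 7.67 and 8.45, were below those of all other samples, 10.33 to 11.11. Nodal and these 3 antagonists were all above 0 on every array, as were 3343 of all 15427 genes, with none of the 4 past the threshold. Of the 8 tested extracellular regulators, these 3 were above 0 on every array and 3 others, Fst, Fstl1 and Bmp1, below it, as were 3497 of all genes.

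Fstl1, a follistatin-like secreted protein, gave −1.82, −0.21 and −2.09 and Bmp1, a protease that cleaves the BMP inhibitor chordin, gave −1.79, −0.04 and −2.33. Each mean, −1.37 and −1.39, comes mainly from arrays 1 and 3. The further Bmp1 probes averaged −0.85 and −0.19, so its probes differ in size. Fstl3, another activin binder, gave −0.55, 0.72 and 1.15, and Ltbp1, which tethers latent TGF-beta to matrix, gave 0.21, −1.17 and −0.42.

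**Figure D3:**
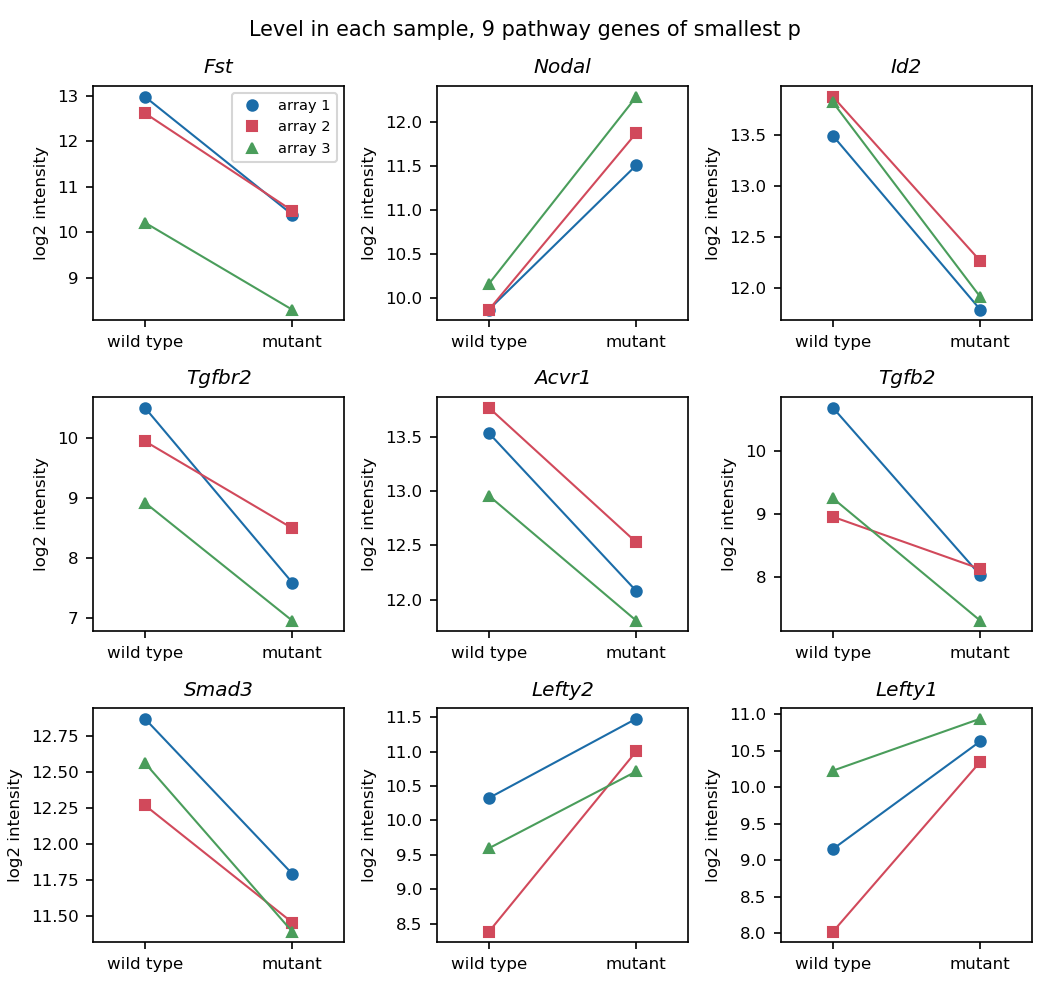
Log2 intensity after normalisation in each wild type and mutant sample for the 9 pathway genes of smallest p, with a line joining the 2 samples of an array. Lines slope upward for Nodal, Lefty1 and Lefty2 and downward for the other 6 genes on every array, and the Fst samples of array 3 sit below those of the other arrays.

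Receptors lay mostly below 0, 8 of 9 tested beside 47.6% of all genes, with a median of −0.67. On arrays 1, 2 and 3 the numbers below 0 were 5, 8 and 7, beside 7617, 7924 and 7464 of all 15427 genes. On every array 4 receptors were below 0, beside 3497 of all genes. Tgfbr2, counted here, met the background requirement in the wild type alone, so the count supports no direction. Tgfbr2, the type II receptor for TGF-beta, had levels of 10.51, 9.95 and 8.93 in wild type and 7.59, 8.50 and 6.96 in mutant samples, without overlap. Its log2 ratio was −2.11 (SE 0.36, n = 3, limma adjusted p = 0.0627), and the mutant was above background on 2 of 3 arrays. A second probe gave −1.02, −1.40 and −0.59.

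Acvr1, a type I receptor for BMPs and activins also called ALK2, had levels of 13.53, 13.77 and 12.96 in wild type and 12.08, 12.53 and 11.81 in mutant samples. No mutant sample reached a wild type one. The ratios of −1.45, −1.24 and −1.15 average −1.28 (SE 0.24, n = 3, limma adjusted p = 0.0704). Another tested probe gave −1.45, −0.03 and −0.62, so the probes disagree on arrays 2 and 3.

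Tgfbr3, the co-receptor betaglycan, gave −1.74, −1.35 and −0.14, averaging −1.08. Bmpr2, the type II BMP receptor, gave −0.48, −0.72 and −0.43, averaging −0.54 (SE 0.24), and its mutant levels did not overlap its wild type ones. Its spread was small beside that of the type I receptors Tgfbr1 (0.27, −1.84 and −0.51) and Bmpr1a (0.36, −2.02 and 0.03), whose values below 0 come mainly from array 2. The activin type II receptors were Acvr2b, at −0.85, 0.20 and −1.35, and Acvr2a, at 0.27, −1.24 and −0.13. Acvr1b, the type I receptor for activin and Nodal, was the only tested receptor with a mean above 0, at 0.33.

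Of the Smads, Smad3, which carries the activin, Nodal and TGF-beta signal, was below 0 on every array. Its levels were 12.87, 12.27 and 12.56 in wild type and 11.79, 11.45 and 11.39 in mutant samples, without overlap. The ratio was −1.02 (SE 0.24, n = 3, limma adjusted p = 0.0997). Its partner Smad2 gave 0.56, −0.97 and 0.30.

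The BMP Smads showed no shared direction: Smad1 gave 0.39, −0.88 and 0.42 and Smad5 −0.99, 0.16 and −1.58. A second Smad5 probe gave 0.69, −0.52 and 0.15, opposite in sign on each array. Smad4, the shared partner, gave 0.43, −1.15 and 0.22 by the brighter probe and −0.47, 0.29 and −0.42 by the other, again opposite on each array. These probe pairs leave no direction for either gene.

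Smad7, an inhibitory Smad that is itself induced by the pathway, had the widest spread of the tested members, 4.19, −1.59 and 4.15. Its wild type levels were 10.00, 11.15 and 9.76 and its mutant levels 14.19, 9.55 and 13.91. Its mean of 2.25 (SE 1.23, limma adjusted p = 0.348) is therefore no single ratio, and a fit with a dye term gave 1.29 with a dye coefficient of −2.88. That coefficient cannot be told apart from a property of the replicate on array 2. Smad6, the other inhibitory Smad, averaged −0.04 with an SD of 0.45.

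Skil, the co-repressor SnoN, gave 1.66, 0.17 and 1.62, averaging 1.15 (SE 0.39), and a second probe gave 1.37, −0.53 and 1.30. Its relative Ski averaged 0.11 with an SD of 0.34. Signals above 0 for Skil thus rest on arrays 1 and 3.

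All 5 target genes had means below 0, beside 47.6% of all genes, with a median of −0.92. Id2, an inhibitor of basic helix-loop-helix factors and a BMP target, had levels of 13.50, 13.88 and 13.83 in wild type and 11.78, 12.26 and 11.91 in mutant samples, without overlap. Its ratios of −1.71, −1.62 and −1.92 were the closest together of the 7 members with an adjusted p under 0.1. They average −1.75 (SE 0.24, n = 3), a 3.36-fold lower signal, with a limma adjusted p of 0.0543.

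Id3 gave −2.38, −0.43 and −2.14, averaging −1.65 (SE 0.45), and its levels did not overlap, at 9.73 to 12.05 in mutant and 12.10 to 13.90 in wild type samples. Id1 gave −0.27, −1.89 and −0.61, averaging −0.92 (SE 0.39). Id1 and Id3 were each below 0 on every array, but Id3 was nearest 0 on array 2 and Id1 farthest from it there. Id4 (−0.87, 0.36 and −2.19) and Tgfbi, a TGF-beta induced matrix protein (−1.11, 0.95 and −2.03), turned sign on array 2.

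The 250 bases before the start site of Nodal, Id2 and Id3 are printed to show where letters of Smad binding sites occur in genes that lie at opposite ends of the ratios. The sequences are from RefSeq, build GRCm38.p6, which differs from the mm9 build of the probe positions. Capitals mark a Smad box (CAGAC) or a GC-rich Smad site (GGCGCC) on either strand.
Nodal, chr10:61417722-61417971, forward strand: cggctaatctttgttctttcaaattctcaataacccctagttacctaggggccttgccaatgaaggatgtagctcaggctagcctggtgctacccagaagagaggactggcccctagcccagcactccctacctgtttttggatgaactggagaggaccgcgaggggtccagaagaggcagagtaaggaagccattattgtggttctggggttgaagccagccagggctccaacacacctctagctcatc
Id2, chr12:25096093-25096342, reverse strand: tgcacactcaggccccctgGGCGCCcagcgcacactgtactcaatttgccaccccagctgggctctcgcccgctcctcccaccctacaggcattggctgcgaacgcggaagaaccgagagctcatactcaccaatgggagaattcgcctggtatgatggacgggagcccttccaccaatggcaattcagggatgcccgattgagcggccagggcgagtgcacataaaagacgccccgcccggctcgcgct
Id3, chr4:136143572-136143821, forward strand: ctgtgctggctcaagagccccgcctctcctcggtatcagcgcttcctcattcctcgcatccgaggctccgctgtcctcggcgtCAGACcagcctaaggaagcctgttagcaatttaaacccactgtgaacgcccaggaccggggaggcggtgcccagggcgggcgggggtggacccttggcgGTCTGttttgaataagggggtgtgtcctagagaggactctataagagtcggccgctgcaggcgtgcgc

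The window before Nodal held neither motif, that of Id2 held 1 GC-rich site and that of Id3 held 2 Smad boxes. Promoters were matched for 36 of 52 members, 44 windows in all. A Smad box was found in 50% of these windows and in 42.2% of 32851 windows of all genes, a GC-rich site in 25% against 9.59%, and the palindrome GTCTAGAC in 0 of 44 against 0.167%. No motif lies whole within another, both strands were searched, and a match is a description of letters, not of binding.

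Of the 7 members that could not be tested, none was above background on all arrays in either genotype. Nog, the BMP antagonist noggin, was above background in 0 of 3 mutant and 2 of 3 wild type samples, and its wild type signal was at least 1.60-fold higher, the mutant being set at the lowest measurable signal or its own. Gdf11 was above background in 1 mutant and 2 wild type samples and Inhba, the subunit of activin A, in 2 and 1. Grem1, a BMP antagonist, was seen in 2 mutant and 1 wild type samples and Bambi, a decoy receptor, in 1 and 0. The 2 probes of chordin, Chrd, each reached background in 2 samples of each genotype, and those of Bmpr1b in 0 mutant samples and in 1 or 2 wild type ones.

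Beyond the members, 50 further pathway genes were listed, of which 34 could be tested. None passed the threshold in either direction, and at an adjusted p under 0.1 there were 5 above 0, beside 4.22% of all genes, and 4 below, beside 3.81%. At an unadjusted p under 0.05 there were 7 in each direction, beside 11.4% of all genes above and 11.3% below 0, and the median was −0.10. The 6 of smallest p were Gdf3, a Nodal-related ligand (2.23, limma adjusted p = 0.0503), Ccn2, the matrix protein listed as Ctgf (−2.43), Pcsk6, a protease that activates Nodal (2.31), the latent TGF-beta binding proteins Ltbp2 (1.23) and Ltbp4 (1.34), and the co-repressor Tgif1 (1.16). Gdf3 gave 2.06, 2.37 and 2.26 on the 3 arrays and Pcsk6 gave 2.80, 1.26 and 2.86.

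The count of called members depended on the dye term and on array 2. With a dye term in the limma model, 7 members were called higher, beside 16.2% of all genes, and 18 lower, beside 15.3%. That fit estimates its spread from arrays 1 and 3 alone, with 1 residual degree of freedom. Under it Nodal was 1.95 (limma adjusted p = 0.00277), Fst −2.20 (0.00276), Lefty2 1.88 (0.0024) and Id2 −1.72 (0.00285). Over all alternatives the limma adjusted p ran from 0.00195 to 0.312 for Nodal, from 0.00169 to 0.393 for Fst, from 0.0024 to 0.419 for Lefty2 and from 0.00168 to 0.306 for Id2. The dye coefficients were 0.06 for Nodal, 0.05 for Fst, 0.10 for Id2 and 0.74 for Lefty2. Only array 2 has dyes reversed, so these coefficients hold dye and any property of that replicate together. Without array 2, where genotype and dye cannot be told apart, 7 members were called higher, beside 26% of all genes, and 16 lower, beside 21.9%. The 18 and the 16 lower calls both hold Tgfbr2, Tgfb2, Bmp6 and Tgfb3, and the 18 also hold Gdf6. By the brightest probe these genes met the background requirement in the wild type alone, so neither lower count supports a direction. Without array 1 or array 3 no member was called.

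**Figure D4:**
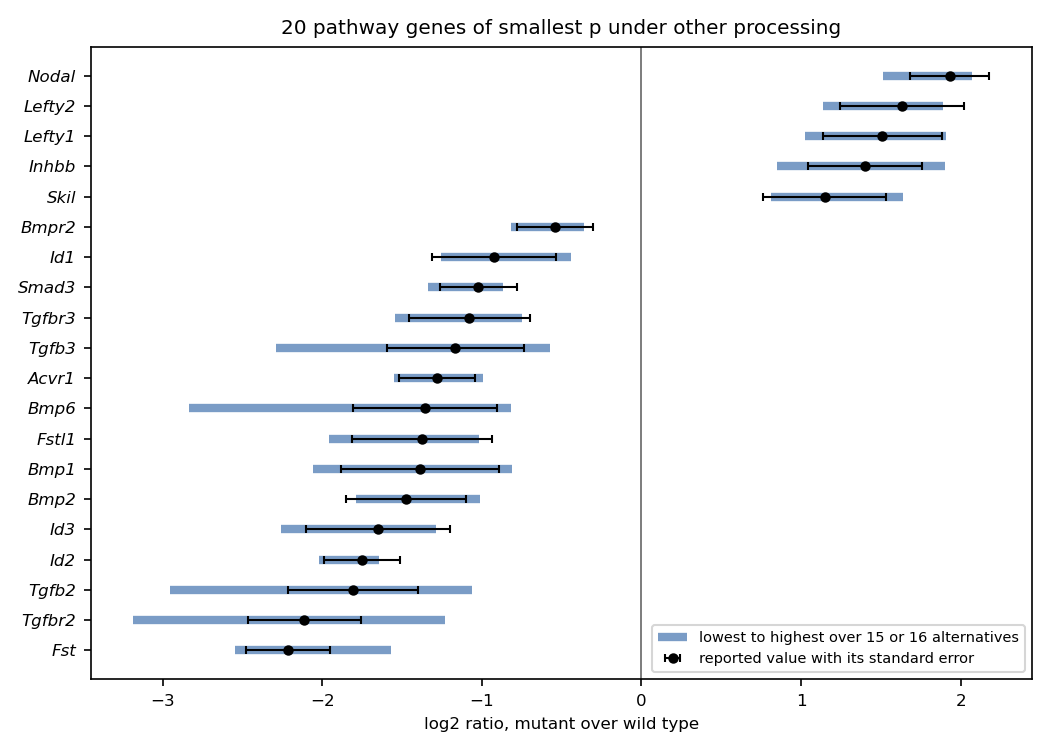
Log2 ratio of mutant over wild type (horizontal axis) for the 20 pathway genes of smallest p, as reported with its standard error (black) and as the lowest to highest value over 15 or 16 alternative processings (blue). No bar crosses 0, and those of Tgfbr2, Tgfb2 and Bmp6 are wide, reaching −3.18, −2.95 and −2.84.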

How the data were processed

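The scanner output was made with Agilent Feature Extraction 10.7.3.1, per the file headers. As deposited, it holds mean and local background intensity of both dyes, processed intensity, and flags in other columns. The authors' deposited value table gives spot log2 ratios made with limma, as named in the submitters' processing notes, which state no settings. Its columns for replicates 1 and 3 each correlated more closely with the other's scanner file, so it served as an alternative only.

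Signals were background-corrected (normexp, offset 50) and loess-normalized within arrays with limma 3.58.1 in R 4.3.3. Control spots (1377) had weight 0, outlier-flagged spots were left out, and 7 spots of replicate 3 with background over 10 times the median were left out. Probes well above background on all arrays of at least 1 genotype were kept (19141), the brightest per gene. A two-sided limma test (lmFit, eBayes) set the paired log ratios against 0, with Benjamini-Hochberg adjustment over 15427 genes. The fit had 2 residual and 3.04 prior degrees of freedom. With 3 arrays an exact sign test cannot go below p = 0.25. Levels are channel log2 intensities after Aquantile scaling. Each array pairs the samples, so the ratio holds the pairing. The number of arrays limits the precision.

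Gene symbols followed the GRCm38.p6 reference for 26761 of 39429 probes. Figures used matplotlib 3.10.9. The fit was tested on simulated data. The members, roles and lists were chosen with earlier results of these data known. Every member is named, with values on each array for the 20 of smallest p, and the 6 further pathway genes of smallest p are named. Some values on single arrays of other members were added after they were seen.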

Additional observations from a re-analysis of the deposited data

How the results depend on the processing

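Under 16 alternatives, 643 ratios of single members kept their direction and side of the threshold, 56 newly passed it and 16, in 10 genes, reversed. The count of members called higher was 1 with Agilent processed signals and 1 with channels as separate samples and no replicate block, and the count called lower was 1 under each of these. Of all genes, 1.69% were called higher and 1.09% lower with Agilent signals, and 1.15% and 0.622% with separate channels. Lower calls also numbered 1 (Fst) with an offset of 16, with no background correction, with scale normalization and with the mean over probes, beside 0.447%, 0.415%, 0.298% and 0.233% of all genes. With the dye term they were 7 and 18, beside 16.2% and 15.3%. Leaving out 1 replicate gave 0 to 7 higher and 0 to 16 lower, the upper values without replicate 2, where dye and genotype cannot be told apart and 47.9% of all genes were called. The 18 and the 16 lower calls hold genes that met the background requirement in the wild type alone, so they support no direction.

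The median of −0.46 became −0.33 with all spots in the background model, −0.54 with an offset of 16, −0.62 with median centring (which moved the median of all genes to −0.22), −0.48 with scale normalization, −0.66 with Agilent signals, −0.30 with the authors' deposited table, −0.34 with no filter, −0.27 with both channels above background and −0.39 with the mean over probes. Without 1 replicate it ran from −0.57 to −0.29.

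The reversals were in members not called in the report: Bmp5 (−0.12 with all spots), Smad6 (0.029 with all spots, 0.091 with the dye term) and Ski (−0.084 with median centring, −0.017 with Agilent signals). Without replicate 1 they were Smad6 (0.12) and Bmp7 (0.12), without replicate 2 Ski (−0.070), Acvr2a (0.072), Bmpr1a (0.19), Smad1 (0.40), Smad2 (0.43) and Smad4 (0.33), and without replicate 3 Bmp5 (−0.24), Smad6 (0.066) and Bmp8b (−0.018). Leaving out each replicate in turn gave −0.24 to 0.82 for Bmp5, −0.36 to 0.12 for Bmp7, −0.018 to 0.66 for Bmp8b, −0.69 to 0.072 for Acvr2a, −0.997 to 0.19 for Bmpr1a, −0.25 to 0.40 for Smad1, −0.33 to 0.43 for Smad2, −0.46 to 0.33 for Smad4, −0.30 to 0.12 for Smad6 and −0.070 to 0.27 for Ski. The causes were not tested.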
